A study of Mus musculus with 14 samples.

Results

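The genes described here encode the coat and tethering machinery that sorts cargo between endosomes, lysosomes and the Golgi. They are the protein-coding genes of the count table whose mouse symbol starts with Chmp or Vps, or names a subunit of the adaptor complexes AP-1 to AP-5. The rule leaves out the alpha subunits of AP-2, Ap2a1 and Ap2a2, which are counted among the partner genes. The rule found 72 genes among the 55414 genes of the table. The family was chosen by the readout of an earlier look at these counts: Chmp5 stands in the study's list of genes changed in db/db and Ap3s1 in its list for ob/ob. For that reason the values of Chmp5 in db/db against CT db, and of Ap3s1 in ob/ob against CT ob, are given as a description with no test.

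Granulosa cells, the somatic cells that surround and feed the oocyte, were released mechanically from antral follicles of mice aged 12 weeks, and about 50 cells were pooled for each poly(A) RNA library. Mutant db/db mice (B6.BKS(D)-Leprdb/J, which lack the long leptin receptor; 4 libraries) were set against their lean littermates, CT db (4 libraries). Mutant ob/ob mice (B6.Cg-Lepob/J, which lack leptin; 3 libraries) were set against theirs, CT ob (3 libraries). Both mutations are carried by every cell of the body, both mutants are obese, and all mice ate the same chow. The labels give the controls as wild type while the names of their columns read as heterozygous, which was not settled here. The labels do not say that each library came from a separate mouse, so p-values measure the spread between these libraries, which may be technical. Library totals ran from 2204686 to 8367593 counts, and 3 counts correspond to between 0.359 and 1.36 CPM, which are counts scaled to a library total of 1000000. All CPM given for genes were also scaled by TMM factors, which correct for differences in composition between libraries.

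ESCRT complexes gather ubiquitinated receptors on endosomes and pinch them into the lumen, where ESCRT-III filaments of Chmp proteins cut the membrane and the Vps4 ATPases take the filament apart. HOPS and CORVET tether endosomes and lysosomes before fusion, retromer and retriever return receptors to the surface or the Golgi, and GARP and EARP receive the returning vesicles. VPS13 proteins bridge membranes and carry lipids between them. The AP complexes select cargo for coated vesicles, AP-2 at the plasma membrane, AP-1 and AP-3 at the Golgi and endosomes, and AP-4 and AP-5 at the Golgi and late endosomes. In granulosa cells the same routes handle internalised hormone receptors and lipoproteins.

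All 10 granulosa markers, among them Fshr, Amh and Cyp19a1, had over 3 counts in every library. The summed level of 10 oocyte markers was 2.81 to 252 CPM in CT db, 5.54 to 65.4 CPM in db/db, 68.3 to 1083 CPM in CT ob and 137 to 722 CPM in ob/ob. The oocyte germline factor Figla was at 0 in all db/db libraries and reached at most 8 counts in any library. Library 3 of CT ob stood apart. The 18S ribosomal RNA gene took 24.4% of its counts, against 1.1% to 12.8% in the other libraries, and its TMM scaling factor was 0.803. The main values that rest on CT ob are therefore also given without that library. Summed markers of theca and stroma were 49.5 to 158 CPM in CT db, 30.7 to 539 CPM in db/db, 35.1 to 361 CPM in CT ob and 17.3 to 101 CPM in ob/ob. Leucocyte markers summed to at most 23.5 CPM and endothelial markers to at most 31.4 CPM in any library.

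Most of the machinery was present in granulosa cells of every group. A count was seen in every library for 65 of the 72 genes, and 64 had over 3 counts in every library. Levels were compared between genes as CPM per kb of exon, averaged over the 14 libraries. On this scale Chmp5, an ESCRT-III subunit that binds the regulator of Vps4, was the highest at 93.5, followed by Ap3s1, a small subunit of AP-3, at 29.9 and Chmp2b, a core ESCRT-III subunit, at 28.5. Ap1m1, the cargo-binding subunit of AP-1, stood at 21.4 and Chmp1a at 21.3, and the retromer core subunit Vps35 at 20.5. Of these 6 genes 3 belong to ESCRT-III, and the others to AP-3, AP-1 and retromer.

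The lowest and highest subunits of a complex often differed widely. Within ESCRT-I, Vps28 stood at 17.9 CPM per kb and Vps37d at 0.487. In ESCRT-II, Vps36 stood at 12.7 and Vps25 at 0.157, although both proteins sit in the same complex. Vps25 had between 0 and 5 counts in every library, and 30.9% of its exon bases are also exons of Ramp2 on chromosome 11. Reads in such shared bases can be lost or split in counting, so the low value of Vps25 is uncertain.

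Genes grouped by tethering complex lay closer together, with Vps33b placed under HOPS and CORVET only as the copy of Vps33a. HOPS and CORVET ran from 2.23 for Vps18 to 19.6 for Vps16, retromer and retriever from 4.07 for Vps35l to 20.5 for Vps35, and GARP and EARP from 1.78 for Vps53 to 8.34 for Vps51. The ATPases Vps4a and Vps4b were at 17.7 and 13.7. The 4 lipid carriers of the VPS13 family were low per length, from 1.1 for Vps13c to 4.08 for Vps13a. Of the 3 remaining Vps genes, Vps72, which despite its name is a nuclear chromatin factor, was highest at 10.7, and Vps9d1 was lowest at 3.69.

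Among the adaptor complexes, the general endocytic complex AP-2, without its alpha subunits, spanned 8.09 for Ap2b1 to 19.9 for Ap2s1. AP-1 reached from 0.0380 for Ap1s3 to 21.4 for Ap1m1, and AP-3 from 0.0157 for Ap3b2 to 29.9 for Ap3s1. AP-4 and AP-5, which vertebrates keep at low abundance in most tissues, were low here as well. Their highest subunits were Ap4s1 at 4.69 and Ap5s1 at 6.05, and their lowest were Ap4b1 at 0.820 and Ap5b1 at 0.661. For Ap4b1, 76.3% of exon bases are shared with Dclre1b and another gene, so its level is uncertain. In all, 19 of the 72 genes share over 10% of their exon bases with another gene.

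**Figure D1:**
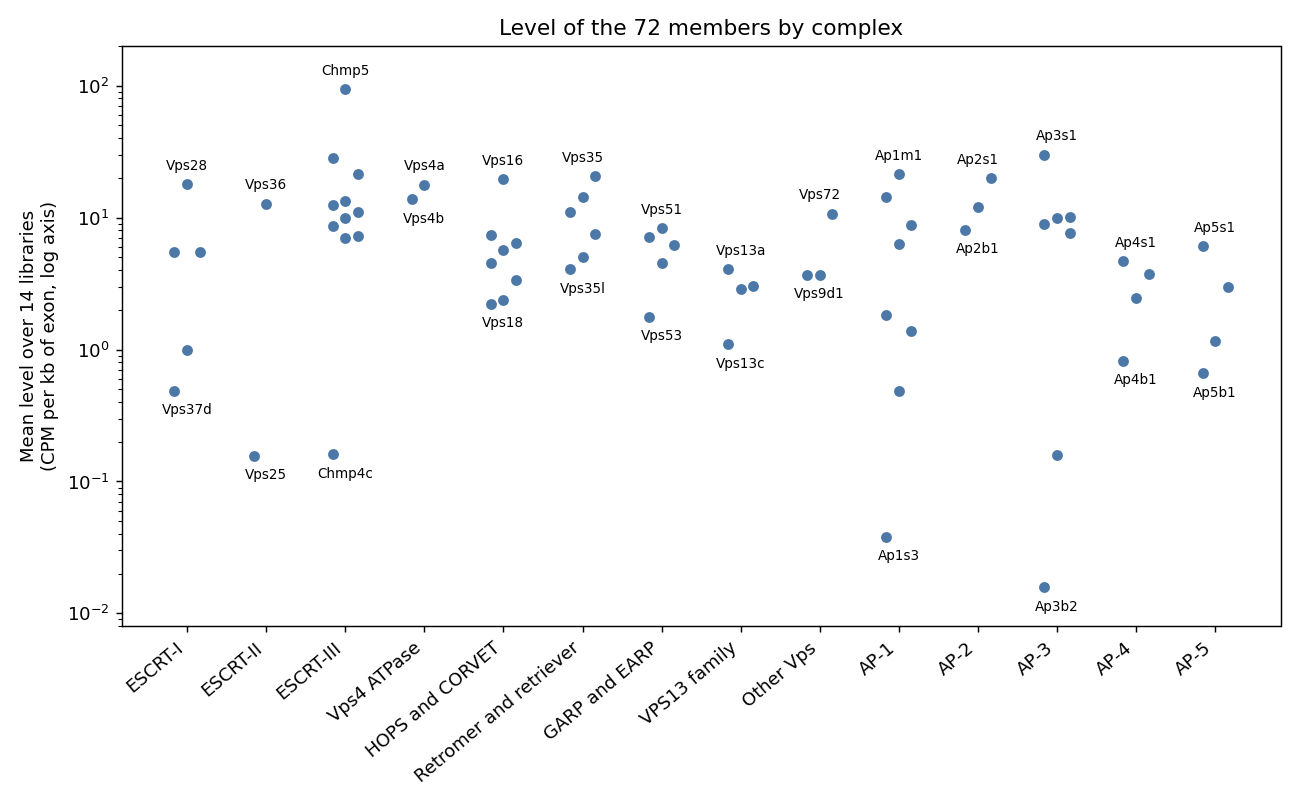
Each point is 1 of the 72 genes, placed by complex on the x axis, and the y axis (log scale) gives its mean level over 14 libraries in CPM per kb of exon. The highest and lowest gene of each complex are named, and the values run from 0.0157 for Ap3b2 to 93.5 for Chmp5.

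Many of these genes have close copies, and granulosa cells used mainly 1 copy in several pairs. Copies known from other tissues were near the floor. The epithelial AP-1 subunit Ap1m2 held a median 1.40% of its pair's level per length, and the neuronal AP-3 subunits Ap3b2 and Ap3m2 held 0% and 0.883%. Chmp4c, known for its part in the checkpoint at the end of cell division, held 1.83% against 98.2% for Chmp4b. The brain-enriched Vps37d held 3.47% of the Vps37 level. Their counts per library were 0 to 31 for Ap1m2, 0 to 7 for Ap3b2, 0 to 25 for Ap3m2, 0 to 20 for Chmp4c and 0 to 11 for Vps37d.

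Other families were shared. Vps4a held 55.8% and Vps4b 44.2%, while Chmp2b held 71.2% and Chmp2a 28.8%. Vps26a held 74.7% against 25.3% for Vps26b, and Vps33a 72.6% against 27.4% for Vps33b. Vps37a and Vps37c held 45.0% and 43.8%, and among the Chmp1 genes Chmp1a held 55.2%. Counts not divided by length turned the order of both the Vps4 pair and the Chmp2 pair, since Vps4b and Chmp2a have the longer exon models. Other shares also depended on length. On counts Vps37a held 71.4% and Vps37c 24.0%, and Chmp4c held 8.71%. Chmp1b2 stood above Chmp1b on counts, at 31.5% and 17.3%, and below it per length, at 18.2% and 25.5%.

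**Figure D2:**
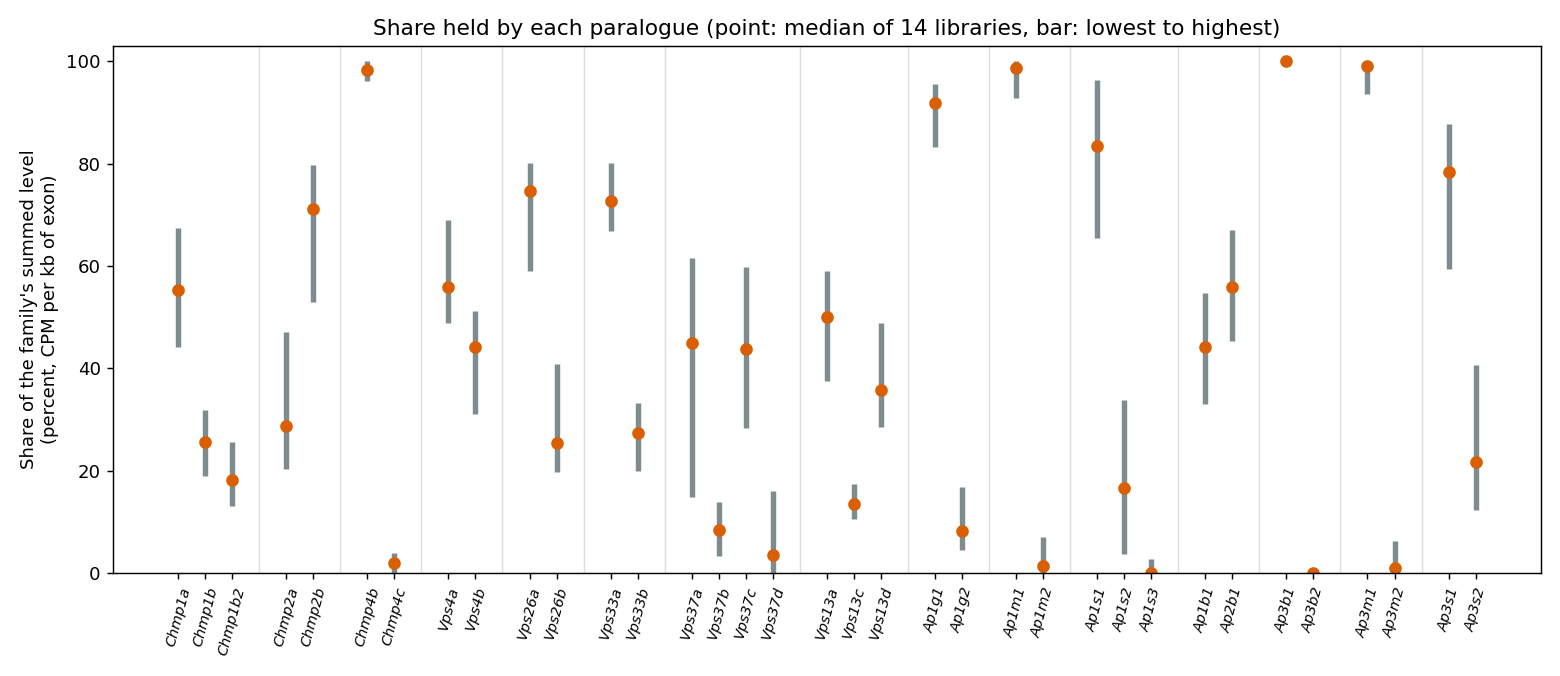
The y axis gives each copy's share of the summed level of its family in percent, from CPM per kb of exon; points are medians and bars span the lowest to the highest of 14 libraries. Ap3b1, Ap3m1, Ap1m1 and Chmp4b hold nearly all of their pairs, with medians of 100%, 99.1%, 98.6% and 98.2%.

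Start sites of the members were looked up among RefSeq promoters on GRCm38.p6, where 51 of the 72 genes had at least 1 start, 57 starts in all. Ap3s1, Vps13b and Vps35 were not among them. The 250 bases before each start were searched on both strands. The palindrome TCACGTGA, the core of the element bound by TFEB and its relatives at lysosomal genes, lay before 4 of the 57 member starts (7.02%) and before 0.785% of all 32851 starts. Those 4 starts belong to Vps16 and Vps33a, which are partners in HOPS, and to Vps26a of retromer, which has 2 nearby starts. The shorter E-box CACGTG, which every TCACGTGA contains, lay before 12.3% of member starts and 6.02% of all starts. The 30 bases around the motif are shown for the genes that hold it, and for Ap1s2, which has the short E-box and takes part in the comparison of the controls below. Capitals mark the motif, and each line reads 5′ to 3′ towards the gene.
Vps16: aggcggcctcgTCACGTGAccccgaagggc
Vps33a: ctcggaTCACGTGAacgtcccgTCACGTGA
Vps26a: cgcacggctcgTCACGTGAcaactagctct
Ap1s2: ccgcttccgggtCACGTGgccagacttccg

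The Vps16 stretch lies at chr2:130424290-130424319 on the plus strand and ends at the base before the start. The Vps33a stretch, at chr5:123573021-123573050 on the minus strand, holds the palindrome at 2 places. The Vps26a stretch lies at chr10:62486970-62486999 on the minus strand and that of Ap1s2 at chrX:163908890-163908919 on the plus strand. The 3 genes with the palindrome had values near zero between mutants and controls. In db/db against CT db, the log2 fold change was 0.13 ± 0.13 (SE) for Vps16, -0.02 ± 0.15 for Vps33a and 0.02 ± 0.15 for Vps26a. In ob/ob against CT ob, it was -0.09 ± 0.16, -0.04 ± 0.21 and 0.04 ± 0.24. None of these passed edgeR's test, with adjusted p of 0.822 or more.

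Chmp5 shares its upstream region with a neighbour. Its RefSeq start and that of Bag1, a co-chaperone of Hsp70 read from the other strand, lie 259 bases apart on chromosome 4. The stretch with 2 GC boxes (GGGCGG or its reverse, in capitals) lies between them at chr4:40948313-40948342. That of Ap1b1, at chr11:4986791-4986820, also holds 2, within the last 33 bases before the start.
Chmp5: ctgcttcaggccCCGCCCtatCCGCCCagc
Ap1b1: ggccCCGCCCttcccacacaggccCCGCCC
A GC box lay before 50.9% of member starts and 32.7% of all starts. The ETS-type motif CCGGAAGT lay before 15.8% and 2.88%. By contrast, CCAAT lay before 17.5% of member starts and 33.8% of all, and TATAAA before 5.26% and 12.4%. These counts describe letters in a window, and no binding was measured.

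Differences between libraries of a group were smaller for these genes than for genes at large, which were not matched to them in level. The part of level in this was not tested. Over the 66 members tested with all libraries, the median coefficient of variation was 14.5% in CT db, 15.6% in db/db, 17.9% in CT ob and 12.7% in ob/ob, against 21.0%, 21.2%, 26.1% and 19.9% over all genes tested. The summed level of the 72 genes was 4002 to 4275 CPM in CT db and 3637 to 4181 CPM in db/db. It was 3527 to 3842 CPM in CT ob and 3636 to 3707 CPM in ob/ob. On this TMM scale the CT db libraries lay above all CT ob and all ob/ob libraries, and db/db overlapped every other group. Without TMM factors the separation was absent. The members then took 0.392% to 0.412% of library totals in CT db, 0.283% to 0.414% in CT ob and 0.353% to 0.400% in ob/ob. In pooled cells, fewer cells of a type and less RNA per cell cannot be told apart.

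No member passed the test between db/db mice and their lean littermates (CT db), the comparison that asks what loss of the long leptin receptor goes with. In db/db against CT db, the edgeR quasi-likelihood fit over 11317 genes, adjusted by Benjamini and Hochberg's method, called 0 of 64 members tested at an adjusted p of 0.05 or less. It called 1 gene in all, 0.00884%. At an unadjusted p under 0.05 stood 5 members, 7.81%, beside 7.59% of all genes. DESeq2 called 0.389% of all genes. Its 1 call among the members was Chmp5, which this contrast put in the study's list, so that call is no test of the gene. The median log2 fold change of the members was -0.02 and that of all genes 0.01, with 29 members above zero and 35 below. With library totals in place of TMM factors, 41 stood above zero and 23 below. Only 1 member was higher and 1 lower in db/db with no overlap of the groups, 3.12% of those tested beside 4.13% of all genes.

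Chmp5 (ENSMUSG00000028419; GRCm39 chromosome 4, 40947737 to 40965719, plus strand) was read at 308, 490.5, 343 and 463 CPM in the CT db libraries. In db/db it was read at 251, 254, 228 and 254 CPM. Every db/db library lay below every CT db library, and the db/db values lay close together. The log2 fold change was -0.71 ± 0.17 (SE), given without a test since this contrast put Chmp5 in the study's list. Bag1, with which Chmp5 shares 20.9% of its exon bases, had a log2 fold change of -0.11 ± 0.16 in the same comparison.

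Ap3s1 (ENSMUSG00000024480; chromosome 18, 46874672 to 46924350) was not listed from this contrast. It was read at 160, 155, 133 and 152 CPM in CT db and at 153.5, 89.9, 78.4 and 88.8 CPM in db/db. In db/db 1 library sat among the controls and the other 3 lay below all of them. The log2 fold change was -0.55 ± 0.20 (SE), which did not pass edgeR's test (adjusted p = 0.567). Its processed copies Ap3s1-ps1 and Ap3s1-ps2 had 0 to 3 counts in any library.

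Ap1s2 (ENSMUSG00000031367; chromosome X, 162691623 to 162716662) encodes an alternative small subunit of AP-1. CT db libraries gave 22.5, 38.1, 43.1 and 50.2 CPM, and db/db libraries gave 23.4, 13.8, 21.6 and 22.2 CPM. The groups overlapped by the lowest control. The log2 fold change of -0.93 ± 0.26 (SE) did not pass (edgeR adjusted p = 0.444).

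Ap4b1, the beta subunit of AP-4, which binds the accessory protein Tepsin, was the only member higher in db/db without overlap. It was read at 3.38, 2.34, 2.20 and 2.18 CPM in CT db and at 4.69, 5.16, 5.2 and 3.44 CPM in db/db, levels within a few times the 3-count floor. Its log2 fold change was 0.85 ± 0.35 (SE), with an edgeR adjusted p of 0.621. Vps13d, a lipid carrier of mitochondria and other organelles, had a log2 fold change of 0.41 ± 0.19 (SE; adjusted p = 0.648), with libraries at 52.1, 77.5, 59.4 and 74.5 CPM in CT db and at 75.9, 110, 97.0 and 69.7 CPM in db/db. Vps35 gave 299, 328, 283 and 290 CPM in CT db and 338, 169.5, 190 and 227 CPM in db/db, with a log2 fold change of -0.38 ± 0.20 (SE; adjusted p = 0.681). These groups overlapped for both genes.

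By complex, 7 of the 10 ESCRT-III genes tested had a log2 fold change below zero in db/db, with a median of -0.05, but 4 of 10 and a median of 0.01 with library totals in place of TMM factors. HOPS and CORVET had 5 of 8 above zero with a median of 0.05, and AP-2 had 3 of 3 above zero with a median of 0.11. Medians of the other groups lay between -0.14 and 0.17. No gene of any complex passed the test.

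No member passed the test in the ob model either. In ob/ob against CT ob, edgeR called 0 of 66 members tested and 0% of 12425 genes. At an unadjusted p under 0.05 stood 5 members, 7.58%, beside 8.16% of all genes. DESeq2 called 0.692% of all genes. Its 1 call among the members was Ap3s1, which this contrast put in the study's list, so that call is no test either. The median log2 fold change was -0.14 for the members and -0.04 for all genes, with 22 members above zero and 44 below (27 and 39 with library totals). With 3 libraries a group the libraries of both groups lay apart for 17 members, 4 higher and 13 lower in ob/ob, which is 25.8% beside 15.7% of all genes. Ap3s1 is among the 17, and the part of the members' smaller spread within groups in this share was not tested. Without library 3 of CT ob, 0 members were called.

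Ap3s1 was read at 48.1, 43.1 and 50.0 CPM in CT ob and at 86.6, 84.3 and 85.6 CPM in ob/ob. All ob/ob libraries lay above all controls, and the libraries within each group lay close together. The log2 fold change was 0.86 ± 0.16 (SE), and 0.91 without library 3 of CT ob. It is given without a test, since this contrast put Ap3s1 in the study's list.

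Chmp5, which was not listed from this contrast, gave 147, 142.5 and 115 CPM in CT ob and 232, 255 and 170.5 CPM in ob/ob. Every mutant library lay above every control, the opposite of the order in the db model. The log2 fold change was 0.69 ± 0.21 (SE) and did not pass (edgeR adjusted p = 0.555), and it was 0.60 without library 3 of CT ob. Bag1 moved the other way, with a log2 fold change of -0.63 ± 0.30 that did not pass (adjusted p = 0.638).

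The lipid carriers Vps13a and Vps13b, genes of chorea-acanthocytosis and Cohen syndrome in people, also lay apart. Vps13a was read at 54.8, 57.3 and 50.3 CPM in CT ob and at 101, 82.7 and 63.0 CPM in ob/ob. Vps13b was read at 53.7, 66.5 and 41.1 CPM in CT ob and at 77.0, 95.5 and 69.3 CPM in ob/ob. Both genes were higher in 3 of 3 mutant libraries than in any control. The log2 fold changes were 0.60 ± 0.21 and 0.58 ± 0.23 (SE), with edgeR adjusted p of 0.57 and 0.604. Without library 3 of CT ob they were 0.55 and 0.42. All 4 genes of this family had values above zero, with a median of 0.57, or 0.49 without that library, and under each scaling tried.

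Of the genes with values below zero, Ap1b1, the large subunit by which AP-1 binds clathrin, had the smallest p. It was read at 72.4, 67.3 and 65.6 CPM in CT ob and at 53.3, 42.8 and 39.9 CPM in ob/ob, with a log2 fold change of -0.60 ± 0.19 (SE; edgeR adjusted p = 0.561). Ap4m1, the cargo-binding subunit of AP-4, was read at 17.4, 15.4 and 21.1 CPM in CT ob and at 10.2, 10.9 and 13.9 CPM in ob/ob. Its log2 fold change was -0.62 ± 0.28 (SE; adjusted p = 0.619). Without library 3 of CT ob the values were -0.62 for Ap1b1 and -0.49 for Ap4m1. Both genes lay apart between the groups but did not pass the test.

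The genes grouped under HOPS and CORVET, Vps33b among them, lay on the same side in ob/ob. All 8 were below zero, from -0.48 ± 0.23 (SE) for Vps8, a subunit of CORVET, to -0.02 for Vps41 of HOPS, with a median of -0.16. With library totals 6 of 8 were below zero, and without library 3 of CT ob 8 of 8 were, with a median of -0.23. Vps8 gave 38.9, 37.1 and 26.2 CPM in CT ob and 22.3, 24.4 and 27.0 CPM in ob/ob, which overlap, and its value was -0.63 without that library. AP-1 had 5 of 6 below zero with a median of -0.49. AP-2 had 3 of 3 below zero with a median of -0.13, but 2 of 3 and no lean in the median without library 3 of CT ob. Of all genes tested 46.0% were above zero, and no gene of these complexes passed the test.

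**Figure D3:**
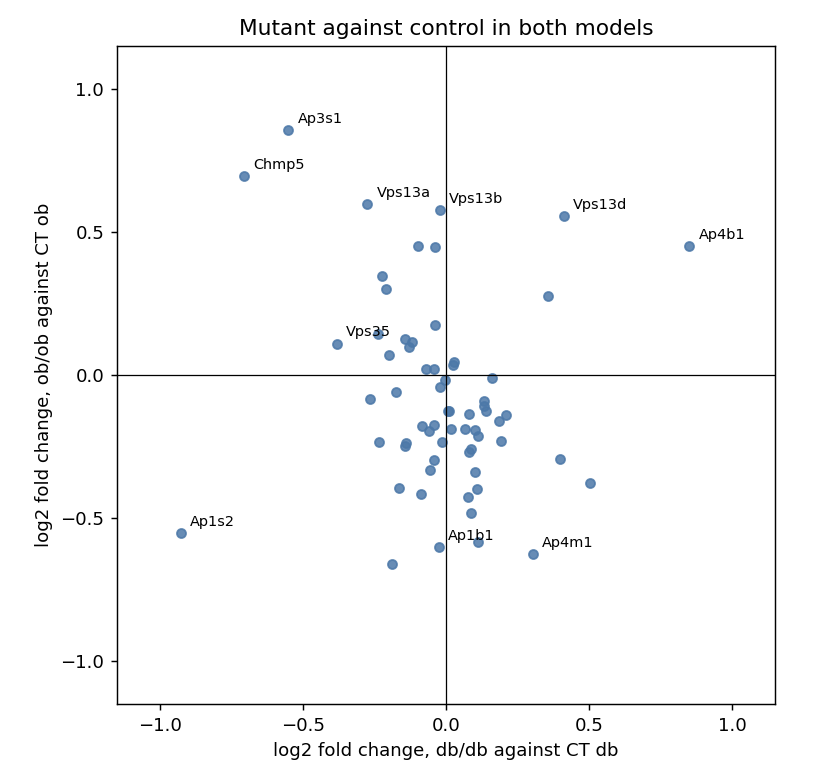
Each point is 1 of the 64 genes tested in both models, with the log2 fold change of db/db against CT db on the x axis and that of ob/ob against CT ob on the y axis. Chmp5 and Ap3s1 stand in the upper left, with -0.71 and -0.55 in the db model and 0.69 and 0.86 in the ob model.

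The mutant effects of the models, which share no library, went the same way for 23 of 64 members, 35.9%, against 51.5% of 11216 genes. Across members Pearson's r was -0.16 and Spearman's rho -0.24, and across all genes 0.11 and 0.06. The members include Chmp5 and Ap3s1, which the study listed from these contrasts and which had opposite signs in the models. The count and correlations without them were not computed. Genes are not independent replicates, so these values describe the genes and carry no p. Chmp5 was the only member whose groups lay apart in both models, and its directions were opposite. The share of all genes that lay apart in both was not computed, so this count has no background beside it. Since the study listed Chmp5 from db/db against CT db, the count describes and does not test.

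The difference between the mutant effects was fitted as an interaction, ob/ob minus CT ob set against db/db minus CT db, over all 14 libraries. edgeR called 0 of 66 members and 0% of all genes, with 5 members at an unadjusted p under 0.05, 7.58% beside 8.11% of all genes. DESeq2 called 0.572% of all genes and, of the members, only Chmp5 and Ap3s1. The interaction was 1.40 ± 0.26 (SE) on the log2 scale for Chmp5 and 1.41 ± 0.28 for Ap3s1. Both contain the contrast by which the study listed the gene, so these values and the DESeq2 calls describe and do not test. For Vps13a it was 0.87 ± 0.31, for Ap4m1 -0.93 ± 0.33 and for Ap1b1 -0.58 ± 0.24, with edgeR adjusted p of 0.517, 0.518 and 0.557. Without library 3 of CT ob the values were 1.32 for Chmp5, 1.47 for Ap3s1, 0.84 for Vps13a, -0.78 for Ap4m1 and -0.58 for Ap1b1.

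The largest differences between groups lay between the lean controls of the models. In CT ob against CT db, edgeR called 7 of 66 members (10.6%), against 6.63% of 12586 genes. Of these, 2 were higher in CT ob, where 2.24% of all genes were, and 5 were lower, where 4.39% of all genes were. With library totals in place of TMM factors, 0 were higher and 2 lower. DESeq2 called 11 members and 12.4% of all genes. Chmp5 and Ap3s1 are among the 7. This comparison shares control libraries with the contrasts that listed them, so the calls of Chmp5 and Ap3s1 describe and do not test. Without these genes 5 of 64 members were called, 7.81%, close to the share of all genes. At an unadjusted p under 0.05 stood 21 members, 31.8% beside 26.9%. Both groups lay apart for 24 members, 13 higher and 11 lower in CT ob, which is 36.4% beside 21.2% of all genes. These 21 and 24 members include Chmp5 and Ap3s1. The members also varied less within groups than genes at large, and the part of this in the share apart was not tested. Strain colony, litter and preparation cannot be told apart from the model here.

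Chmp5 and Ap3s1, whose values are given above, were both about 3 times as high in CT db. Chmp5 averaged 401 ± 89.2 CPM (SD, n = 4) in CT db, while CT ob averaged 135 ± 17.7 CPM (SD, n = 3). The log2 difference was -1.57 ± 0.19 (SE; edgeR adjusted p = 0.00204), and -1.48 with an adjusted p of 0.0124 without library 3 of CT ob. Ap3s1 averaged 150 ± 12 CPM (SD, n = 4) in CT db, while CT ob averaged 47.1 ± 3.55 CPM (SD, n = 3). The log2 difference was -1.67 ± 0.20 (SE; adjusted p = 0.00204), and -1.73 with an adjusted p of 0.0120 without that library. Both stayed called in all 14 fits that left out 1 library. Because the control libraries also entered the contrasts that listed these genes, their adjusted p and calls here describe and do not test. With the libraries of these groups alone in the fit, Ap3s1 was still called and Chmp5 was not (adjusted p = 0.0524). Bag1, next to Chmp5, had a log2 fold change of 0.54 ± 0.23 in the other direction that did not pass (adjusted p = 0.153).

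Ap1s2 was lower in CT ob, at 11.5, 21.4 and 7.14 CPM, than in CT db. The log2 fold change was -1.51 ± 0.34 (SE; edgeR adjusted p = 0.0232), and -1.25 with an adjusted p of 0.0765 without library 3 of CT ob. Vps13a (ENSMUSG00000046230; chromosome 19, 16592730 to 16758354) and Vps13b (ENSMUSG00000037646; chromosome 15, 35371256 to 35931386) were lower in CT ob as well, and all 4 genes of their family were below zero. CT db libraries gave 61.9, 108, 89.3 and 117 CPM of Vps13a, and 69.2, 113, 76.9 and 101 CPM of Vps13b. The lowest library of CT db lay just above the highest of CT ob for both genes. Their log2 fold changes were -0.79 ± 0.22 and -0.74 ± 0.21 (SE; adjusted p = 0.0453 and 0.0492). The same CT ob libraries entered ob/ob against CT ob, so the directions of this family in these comparisons are not independent. In ob/ob against db/db, 2 of its 4 genes were above zero and 2 below, with a median of -0.06.

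The 2 genes called higher in CT ob are large subunits. Ap3d1 (ENSMUSG00000020198; chromosome 10, 80542790 to 80578142), the delta subunit of AP-3 that is mutated in mocha mice, was read at 90.1, 67.5, 81.6 and 77.0 CPM in CT db and at 109, 109 and 125 CPM in CT ob, with no overlap. Its log2 fold change was 0.54 ± 0.14 (SE; edgeR adjusted p = 0.0346). Ap1b1 (ENSMUSG00000009090; chromosome 11, 4896135 to 4992791), which shares 11.1% of its exon bases with Nefh, was read at 52.9, 36.2, 45.9 and 41.2 CPM in CT db, below all CT ob libraries given above. Its log2 fold change was 0.64 ± 0.16 (SE; adjusted p = 0.0352). Without library 3 of CT ob the log2 fold changes were 0.45 for Ap3d1, 0.66 for Ap1b1, -1.25 for Ap1s2, -0.76 for Vps13a and -0.60 for Vps13b. None of these 5 was then called, with adjusted p of 0.109, 0.0810, 0.0765, 0.130 and 0.159, and 0.850% of all genes were called in that fit. Leaving out CT db library 2 or 4, or CT ob library 1, also left only Chmp5 and Ap3s1 called, and leaving out CT db library 3 left 3 genes.

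**Figure D4:**
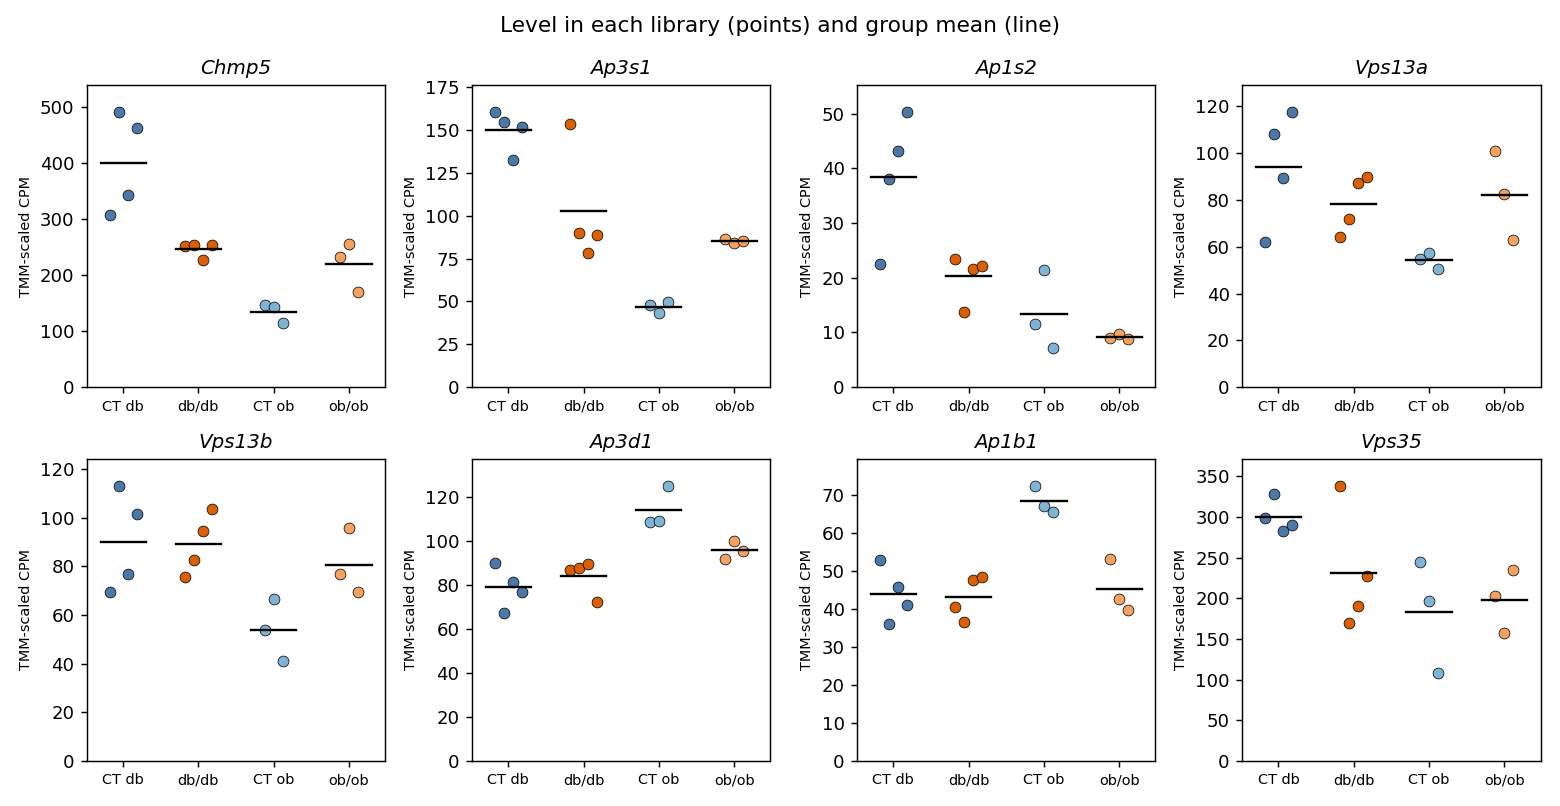
Each panel shows 1 gene, with its level in TMM-scaled CPM on a y axis that starts at 0 and the 4 groups on the x axis; points are libraries and lines are group means. The 3 CT ob libraries of Chmp5 and of Ap3s1 lie below all other libraries, at 115 to 147 CPM and 43.1 to 50.0 CPM.

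By complex, the calls between the controls fell in ESCRT-III (1 of 11 tested), the VPS13 family (2 of 4), AP-1 (2 of 6) and AP-3 (2 of 5). In ESCRT-III the other 10 genes had log2 fold changes from -0.38 for Chmp2b to 1.63 ± 1.0 (SE) for Chmp4c, which had 0 to 20 counts a library. DESeq2 also called Ap1g1 (log2 fold change -0.46 ± 0.14) and Vps50 (-0.69 ± 0.23) lower, and Ap1s1 (0.66 ± 0.20) and Vps16 (0.35 ± 0.13) higher, with SEs and values from edgeR. Without library 3 of CT ob the edgeR values were -0.36 for Ap1g1, -0.48 for Vps50, 0.38 for Ap1s1 and 0.38 for Vps16. Their edgeR adjusted p was then 0.135 or more, and DESeq2 was not run without that library. Ap1g1 is the gamma subunit of AP-1 and Vps50 the subunit particular to EARP. Vps35 had -0.71 ± 0.27 (adjusted p = 0.109), or -0.46 without library 3 of CT ob, and its CT ob libraries, at 245, 196 and 108 CPM, lay below all those of CT db.

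**Figure D5:**
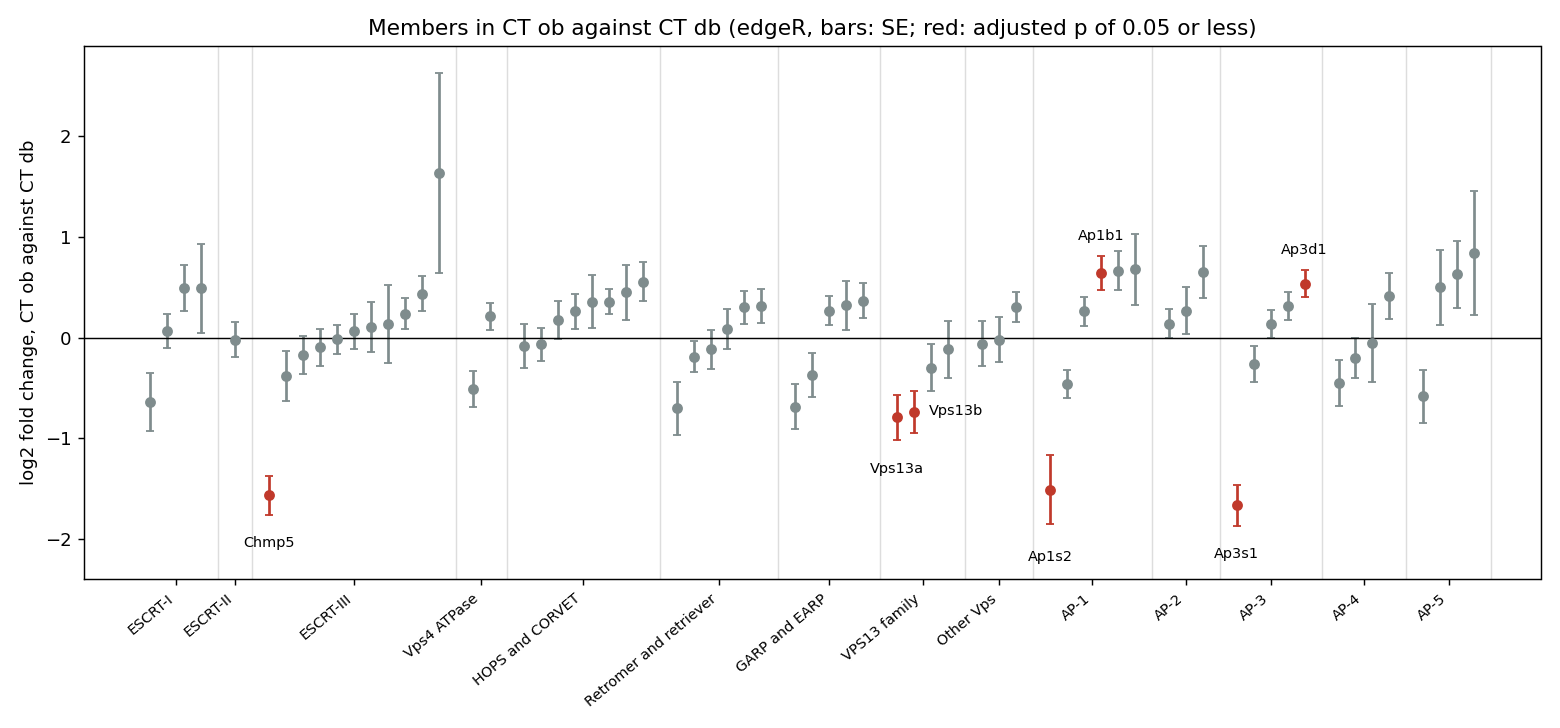
The y axis gives the log2 fold change of CT ob against CT db with its SE for the 66 genes tested, grouped by complex on the x axis and ordered by value within each. Points in red passed edgeR's test: 5 lie below zero, down to -1.67 for Ap3s1, and 2 above, at 0.54 for Ap3d1 and 0.64 for Ap1b1. Those of Chmp5 and Ap3s1 describe and do not test, since the contrasts that listed them share these control libraries.

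Within AP-1 and AP-3 the copies of the small subunit took different shares in the control groups. Ap3s1 held 84.0% to 87.7% of the Ap3s1 and Ap3s2 level per length in CT db and 59.4% to 63.1% in CT ob. It held 75.2% to 85.7% in db/db and 76.2% to 79.0% in ob/ob. Ap3s2 itself had a log2 fold change of 0.31 ± 0.14 between the controls (edgeR adjusted p = 0.172). Ap1s2 held 21.2% to 33.8% of the small subunits of AP-1 in CT db, 12.8% to 22.2% in db/db, 3.63% to 15.8% in CT ob and 7.31% to 8.89% in ob/ob. The range of CT ob lay outside that of CT db in both families. The AP-3 shares contain the level of Ap3s1, which was listed from a contrast with these CT ob libraries, so they describe and do not test.

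Other measures moved with the same control groups. Fshr, the receptor for follicle-stimulating hormone that marks granulosa cells, was read at 184 to 332 CPM in CT db and 36.4 to 120 CPM in CT ob, with a log2 fold change of -1.72 ± 0.35 (SE; edgeR adjusted p = 0.0163). The granulosa markers did not all go that way. Means of Amh, Amhr2, Foxl2 and Inha were higher in CT ob, and those of Fshr, Inhba, Cyp19a1, Nr5a2, Fst and Esr2 were lower. Summed granulosa markers overlapped, at 5897 to 11040 CPM in CT db and 5479 to 10030 CPM in CT ob. The summed oocyte markers had a median of 81.8 CPM in CT db and 283.5 CPM in CT ob, with overlapping ranges, and 9 of the 10 had over 3 counts in every CT ob library against 1 in CT db. The study drew oocytes out of the complexes with glass needles and kept the released granulosa cells. Summed endothelial markers were 3.10 to 8.24 CPM in CT db and 8.84 to 31.4 CPM in CT ob. Longer exon models went with lower log2 fold changes in CT ob against CT db (Spearman's rho -0.28 over 66 members and -0.10 over all genes) and with higher ones in ob/ob against CT ob (0.27 and 0.12). The part of each of these in the results for Chmp5, Ap3s1 and the other genes was not tested.

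No member passed the test between the mutants of the models. In ob/ob against db/db, edgeR called 0 of 66 members and 0.0159% of all genes, and DESeq2 called 0 members and 0.572% of all genes. At an unadjusted p under 0.05 stood 2 members, 3.03% beside 8.18% of all genes. Ap1s2 had the smallest p. Its ob/ob libraries, at 8.97, 9.69 and 8.87 CPM, lay below all db/db libraries, and the log2 fold change was -1.14 ± 0.34 (SE; edgeR adjusted p = 0.348). Ap4m1 gave 17.9, 18.9, 15.6 and 14.7 CPM in db/db, above all ob/ob libraries, with -0.52 ± 0.23 (SE; adjusted p = 0.589), and Vps8 had -0.40 ± 0.19 (SE; adjusted p = 0.628). The log2 fold changes of Chmp5 and Ap3s1 were -0.17 ± 0.19 and -0.26 ± 0.19 (SE), with adjusted p of 0.919 and 0.844.

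Partners and further subunits of these complexes that the symbol rule does not take in were counted as a second list of 51 genes. Among them were Hgs, Tsg101, the AP-2 alpha subunits Ap2a1 and Ap2a2, the clathrin chains, sorting nexins and the WASH complex. Of the 50 tested, edgeR called 0 in db/db against CT db, 0 in ob/ob against CT ob, 0 in the interaction and 0 in ob/ob against db/db. At an unadjusted p under 0.05 stood 4, 3, 3 and 1 of them, which is 8%, 6%, 6% and 2% beside 7.59%, 8.16%, 8.11% and 8.18% of all genes, and DESeq2 called 0, 1, 0 and 0. Between the controls edgeR called 2 (4%) and DESeq2 4 (8%), below the 6.63% and 12.4% of all genes. Cltb, a light chain of clathrin, was higher in CT ob (log2 fold change 1.62 ± 0.36, SE; adjusted p = 0.0227), and Lamp2, a lysosomal membrane protein, was lower (-0.85 ± 0.21; adjusted p = 0.0325). No partner gene was checked without library 3 of CT ob. Between the controls, 0.850% of all genes were called by edgeR without that library. Vta1, the Vps4 regulator that binds Chmp5, had the same signs as Chmp5: -0.35 ± 0.14 in db/db against CT db, 0.32 ± 0.25 in ob/ob against CT ob and -0.48 ± 0.19 between the controls. None of these passed edgeR's test, with adjusted p of 0.597, 0.747 and 0.124. Vta1 was singled out from the partner genes after its values were seen. The comparisons share control libraries, so their signs are not independent.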

How the data were processed

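The authors deposited 1 table of raw counts per gene (Ensembl identifiers) for 14 granulosa cell libraries. The submitters' processing notes name FastQC, Trim Galore 0.6.2, HISAT2 2.1.0 and GRCm38, while the study's methods name STAR, featureCounts and GRCm39, so aligner and build were not settled. Whether counting used strand is not given in the sources used here. Symbols, positions and exon lengths came from GENCODE on GRCm39, which matched 54749 of 55414 genes, and promoters from RefSeq on GRCm38.p6. Genes passed filterByExpr (minimum count 10, minimum total 15), were scaled by TMM and tested with edgeR 4.0.16 (quasi-likelihood, R 4.3.3), with Benjamini-Hochberg adjustment over all genes tested and calls at 0.05. DESeq2 1.42.0, other scalings, filters and libraries were alternatives. The fits were tested on simulated data. Comparisons within a model used its own libraries, and the others used all 14. The study's own gene lists were not used as data.

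Members, complexes, families, partner genes and cell markers were chosen with earlier results of these data known. Genes described by library were the 6 with the smallest p in db/db against CT db, ob/ob against CT ob and CT ob against CT db, the 3 in the other tests, and Chmp5 and Ap3s1. The highest and lowest gene of each complex and copies restricted in tissue were named for level. Other genes, such as Vta1, Bag1 and those called by DESeq2 alone, were singled out after their values were seen. Promoter motifs and the stretches shown were chosen after the other results were seen.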

Additional observations from a re-analysis of the deposited data

Results flagged for a closer look

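Single libraries stood apart from the other 3 of their group at the 95% level of Dixon's test in 4 of 24 groups tested, where chance gives about 1 in 20. Ap3s1 was at 153.5 CPM in 1 db/db library against 78.4 to 89.9 CPM in the others, and Ap3d1 was at 72.5 CPM in another against 87.0 to 89.6 CPM. Chmp5 was at 228 CPM in 1 db/db library against 251 to 254 CPM, and Ap4b1 was at 3.38 CPM in 1 CT db library against 2.18 to 2.34 CPM. Groups of 3 libraries were not tested. Chmp5 moved down in every db/db library and up in every ob/ob library against its controls, with a difference of 1.40 between these effects on the log2 scale. That difference is given without a test, since it holds the contrast by which the gene was listed.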

How the results depend on the processing

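No paired analysis was possible because the columns of the table carry no replicate numbers of the labels. In db/db against CT db the count of 0 members became 1 with DESeq2 (Chmp5) and 2 with no filter beyond 1 count (Chmp5 and Ap1s2). In ob/ob against CT ob it became 1 with DESeq2 and 1 with no filter (Ap3s1 in both). In the interaction it became 2 with each of these (Chmp5 and Ap3s1) and 1 without db/db library 1 (Ap3s1), a range of 0 to 1 over single libraries left out. The calls of Chmp5 and Ap3s1 in these comparisons rest on the contrasts that listed them and test nothing. In ob/ob against db/db it became 1 with no filter (Ap1s2). Between the controls the count of 7 became 11 with DESeq2, 2 with library totals alone (0 higher, 2 lower, against 2 and 5), and 1 with these groups alone in the fit. It was 2 to 7 with 1 library left out, and 2 without CT ob library 3. With no filter it was 7 again, but 0 higher and 7 lower. Calls of Chmp5 and Ap3s1 between the controls also describe and do not test. RLE scaling, a floor of 10 counts in every library and, chosen after seeing the data, removal of the 18S gene moved no count by over 1.5 times, nor did robust dispersions in the interaction or all 14 libraries in 1 fit within a model. The directions of complexes under other scalings and the counts without CT ob library 3 were also chosen after seeing the data. No log2 fold change of a gene named by p changed sign under these alternatives. With library totals alone the members' mean summed level was 3802 CPM in ob/ob in place of 3669 CPM. The causes were not tested. Depth limits genes such as Ap4b1, Chmp4c and Vps25, which are near the floor of 3 counts.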
